A study of Mus musculus with 2 samples.

Results

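Mir302a, Mir302b, Mir302c, Mir302d and Mir367 are microRNA precursor genes that lie side by side on mouse chromosome 3. They were chosen by name in GENCODE release M21, and all 5 were among the 1973 microRNA genes of the deposited tables, each with the same identifier and version as in the annotation. The material was whole lung of mouse embryos of strain B6NCrl at embryonic day 15.5, given as healthy and of pooled sex. The group, embryonic lung, had 2 replicates: replicate 1 pooled the lungs of 78 embryos and replicate 2 those of 62. Inserts were shorter than 30 nt, and reads were counted per precursor, so the products of both arms of a hairpin were added together. With a single group there was no contrast between conditions, and the data give the level of each gene in lung.

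The miR-302/367 cluster is transcribed as 1 primary RNA that is cut into separate hairpins. It is known as the abundant microRNA cluster of primed pluripotent stem cells and early embryos, where it is activated by the pluripotency factors Oct4 and Sox2, and in the mouse it has been studied in the early foregut endoderm and lung bud, where it favours proliferating progenitors over differentiation. A microRNA recognises its targets mainly through its seed, bases 2 to 8 of the mature strand. The miR-302 products carry a seed held in common with members of the miR-290 to miR-295 cluster of mouse embryonic stem cells. The seed of miR-367 is that of miR-25, miR-32, miR-92 and miR-363.

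The hairpins are shown because the members differ by few bases where their main products lie, and this bears on how reads could be assigned. All sequences are from RefSeq on GRCm38.p6, which held a hairpin for each of the 5 genes, and they read 5′ to 3′ with the seed heptamer in capitals, in the order of the genes on the plus strand.
Mir302b, chr3:127545228-127545301: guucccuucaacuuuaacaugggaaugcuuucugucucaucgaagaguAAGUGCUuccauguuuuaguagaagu
Mir302c, chr3:127545363-127545430: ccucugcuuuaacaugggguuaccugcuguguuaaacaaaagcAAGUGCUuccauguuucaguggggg
Mir302a, chr3:127545496-127545564: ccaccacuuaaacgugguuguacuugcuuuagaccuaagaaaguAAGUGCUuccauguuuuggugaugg
Mir302d, chr3:127545624-127545689: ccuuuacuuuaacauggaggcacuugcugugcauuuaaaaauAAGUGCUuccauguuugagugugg
Mir367, chr3:127545733-127545807: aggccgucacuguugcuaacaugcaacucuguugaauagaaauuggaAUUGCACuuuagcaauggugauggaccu

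The mature strands that carry these heptamers place the members in seed groups, with bases 2 to 8 in capitals. RefSeq listed the 3p strand for Mir302b, Mir302c, Mir302d and Mir367, and of Mir302a the 5p strand only. Mir302a is therefore missing from the seed groups of 3p strands below, although its hairpin holds AAGUGCU.
miR-302b-3p: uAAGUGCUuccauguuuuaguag
miR-302d-3p: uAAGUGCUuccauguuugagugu
miR-302c-3p: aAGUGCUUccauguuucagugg
miR-294-3p: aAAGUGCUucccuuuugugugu
miR-17-5p: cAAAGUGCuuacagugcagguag
miR-367-3p: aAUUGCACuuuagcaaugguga
miR-25-3p: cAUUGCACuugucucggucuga
miR-92a-3p: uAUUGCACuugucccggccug

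The seed AAGUGCU was shared by miR-302b-3p and miR-302d-3p with miR-291a-3p, miR-294-3p and miR-295-3p, and by no other of the listed mature strands. The listed miR-302c-3p starts at the first A of that heptamer, so its bases 2 to 8 read AGUGCUU, which no other listed mature strand had. The seed of miR-17-5p, AAAGUGC, is the same stretch shifted by 1 base. On the other arm, miR-302b-5p, miR-302c-5p and miR-302d-5p all had the seed CUUUAAC, while miR-302a-5p had CUUAAAC. Of 1005 hairpins searched on their own strand, 24 (2.39%) held AAGUGCU anywhere and 11 (1.09%) held AUUGCAC.

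The cluster spans 580 bp, and the gaps between neighbouring precursors are 43 to 65 bp. The genes lie on the plus strand inside introns of the 2 annotated Larp7 transcripts that span them. Larp7 is transcribed from the minus strand and encodes a protein that binds 7SK RNA. None of the annotated exons of the 4 Larp7 transcripts overlapped a member, and Larp7 and the nearby Zgrf1 were not measured in these tables of microRNA genes. The 5 hairpins are 66 to 75 nt long with a GC content of 39.2% to 47.1%, and their predicted minimum free energies were -23.3 kcal/mol for Mir302b, -27.5 for Mir302d, -28.6 for Mir302c, -31.7 for Mir302a and -34.5 for Mir367.

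The 4 Mir302 hairpins had a run of 16 bases in common, aagugcuuccauguuu, which occurred in none of the other hairpins searched. Mir302a and Mir302b had a run of 20 bases in common, aguaagugcuuccauguuuu, while Mir302d matched Mir302a and Mir302b over at most 17 bases and Mir302c matched any other precursor over at most 16. The longest run of Mir367 in any other precursor was 11 bases. The tables set aside reads with several mapping positions, so a read of Mir302a or Mir302b confined to their common run could not have been counted for either, and both levels may be too low. Matches elsewhere in the genome were not searched.

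Libraries were similar in depth. Replicate 1 held 11410353 reads and replicate 2 held 13532349, of which 5354530 and 6489390 were assigned to microRNA genes on their own strand. Levels are given as CPM, counts per 1000000 assigned reads, so 1 count was worth 0.187 CPM in replicate 1 and 0.154 CPM in replicate 2. For ratios, a count of 0 was set to a floor of 3 counts, which is 0.560 CPM in replicate 1 and 0.462 CPM in replicate 2. All intervals and floors here cover counting error only, as no molecular identifiers are recorded. Markers of the labelled tissue were abundant, with means of 79294 CPM for Mir143 of smooth muscle, 67953 CPM for Mir126a of endothelium, 13376 CPM for Mir429 and 10967 CPM for Mir200c of epithelium, and 4578 CPM for Mir375 of neuroendocrine cells. Markers of heart and skeletal muscle (Mir208b, 524 CPM, Mir208a, 414 CPM, Mir206, 105 CPM) and of liver (Mir122, 374 CPM) also stood above every member in mean CPM. Their ratios of replicate 1 over replicate 2 were 0.345, 2.25, 0.347 and 1.69, in that order. Where their reads came from was not tested.

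Mir302a, Mir302b, Mir302c and Mir302d were present at low levels in embryonic lung, and Mir367 had no count in either library. Together the 5 genes had 375 counts in replicate 1 and 395 counts in replicate 2. That was 70.0 CPM (95% exact Poisson interval 63.1 to 77.5) and 60.9 CPM (55.0 to 67.2), a mean of 65.5 ± 6.48 CPM (SD, n = 2). Of the members, 4 of 5 reached at least 10 counts in both libraries, beside 357 of all 1973 microRNA genes (18.1%). In whole lung a few cells with much of a microRNA and many cells with little of it cannot be told apart. No read was counted on the strand opposite any of the 5 genes, the strand of Larp7, so counts without regard to strand were identical.

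Mir302a, the third precursor in genomic order, was the highest. It had 165 counts (30.8 CPM, 95% interval 26.3 to 35.9) in replicate 1 and 171 counts (26.4 CPM, 22.5 to 30.6) in replicate 2, a mean of 28.6 ± 3.16 CPM (SD, n = 2). It ranked 242nd by mean CPM among the 1973 genes. Mir302a held 44.0% of the cluster's counts in replicate 1 (95% Clopper-Pearson interval 38.9 to 49.2) and 43.3% in replicate 2 (38.3 to 48.3). The pools thus differed in this share by less than counting error.

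Mir302d came next, with 105 counts (19.6 CPM, 16.0 to 23.7) in replicate 1 and 112 counts (17.3 CPM, 14.2 to 20.8) in replicate 2. Its mean was 18.4 ± 1.66 CPM (SD, n = 2) and its rank 256. Mir302b, the first precursor of the cluster, had 93 counts (17.4 CPM, 14.0 to 21.3) in replicate 1 and 99 counts (15.3 CPM, 12.4 to 18.6) in replicate 2. Its mean was 16.3 ± 1.49 CPM (SD, n = 2) and its rank 258. These genes, whose 3p strands have the same seed, held similar shares of the cluster's counts, 28.0% and 28.4% for Mir302d and 24.8% and 25.1% for Mir302b in replicates 1 and 2.

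Mir302c, the second precursor, stood far below its neighbours on either side. It had 12 counts (2.24 CPM, 1.16 to 3.91) in replicate 1 and 13 counts (2.00 CPM, 1.07 to 3.43) in replicate 2, a mean of 2.12 ± 0.168 CPM (SD, n = 2). It was 3.20% and 3.29% of the cluster's counts and ranked 358th, just above the minimum of 10 counts. Its listed 3p strand is the one that starts within the heptamer, and its hairpin has the highest GC content of the 5, 47.1%. A link of either feature to its level was not tested.

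Mir367, the last precursor and the only member outside the miR-302 type, had 0 counts in replicate 1 and 0 counts in replicate 2. The upper limits of its exact Poisson intervals were 0.689 CPM in replicate 1 and 0.568 CPM in replicate 2. Both lie above the floor used for ratios, which is 0.560 CPM in replicate 1 and 0.462 CPM in replicate 2. In all, 1261 of the 1973 genes had no count in either library. Reads of Mir367 that mapped to several places in the genome would also be missing from its count. Its presence was therefore not detectable at this depth.

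**Figure D1:**
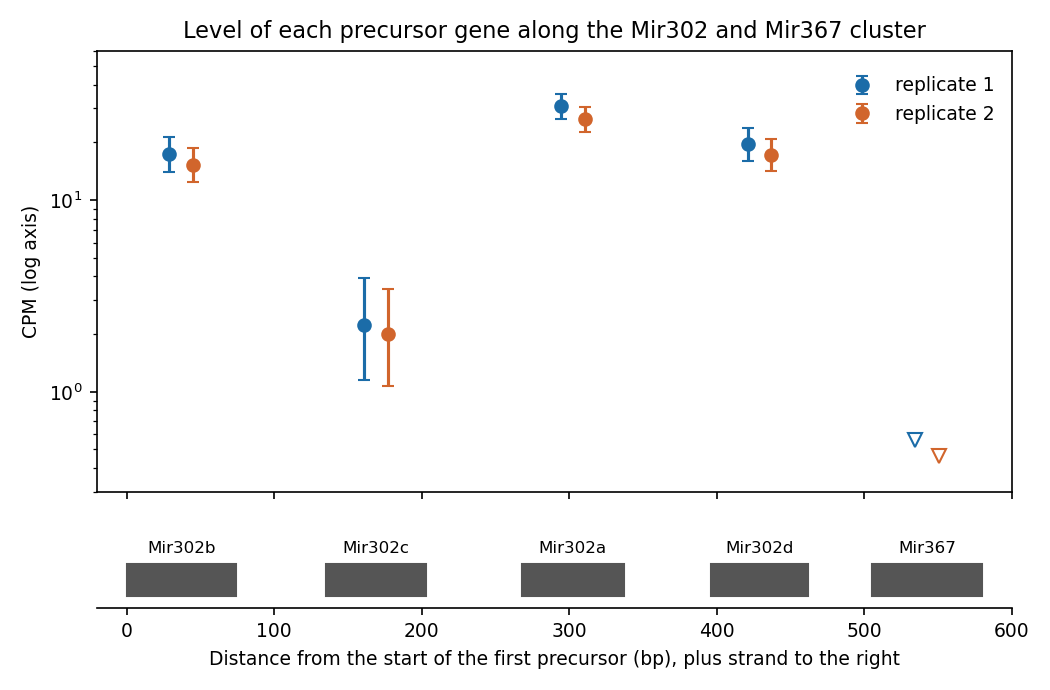
CPM on a log axis against distance along the cluster, in genomic order, with points for the 2 replicates and bars for the 95% exact Poisson interval of each count; open triangles mark the floor of 3 counts for Mir367, which had 0 counts. Mir302a (mean 28.6 CPM) is highest, Mir302c (mean 2.12 CPM) lies well below the precursors on both sides of it, and the replicates overlap for each gene with counts.

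The order Mir302a, Mir302d, Mir302b, Mir302c, Mir367 was the same in both libraries, and 10 pairs of members were compared within each library. Mir302a exceeded Mir302d by 1.57-fold (95% exact binomial interval 1.22 to 2.03) in replicate 1 and 1.53-fold (1.20 to 1.96) in replicate 2. It exceeded Mir302b by 1.77-fold (1.37 to 2.31) and 1.73-fold (1.34 to 2.24). Each of these intervals lies above 1, and the CPM values of the compared genes did not overlap between replicates.

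Mir302d and Mir302b could not be told apart. Mir302d was 1.13-fold Mir302b in each library, with intervals of 0.846 to 1.51 in replicate 1 and 0.856 to 1.50 in replicate 2, and their CPM values overlapped. Since Mir302a and Mir302b have 20 bases in common, their position against Mir302d is uncertain.

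Mir302c was separated from the other 3 by far more than either the counting error or the spread. Mir302a exceeded it by 13.8-fold (7.66 to 27.2) in replicate 1 and 13.2-fold (7.49 to 25.2) in replicate 2, with a mean log2 ratio of 3.75 ± 0.0452 (SD, n = 2). Mir302d exceeded it by 8.75-fold (4.80 to 17.5) and 8.62-fold (4.84 to 16.7), and Mir302b by 7.75-fold (4.23 to 15.5) and 7.62-fold (4.25 to 14.8). Against the floor of 3 counts per library, Mir302a was 55.0-fold and 57.0-fold higher than Mir367 in replicates 1 and 2. The 95% exact binomial lower limits were smaller, 44.2-fold and 45.9-fold. For Mir302c, at 12 and 13 counts against 0 for Mir367, those lower limits were 2.78-fold and 3.05-fold.

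Exact 2-sided permutation tests of 2 values against 2 gave p = 0.333 for 9 of the 10 pairs and p = 0.667 for Mir302d against Mir302b. These tests treated the values of the 2 genes as independent, although both genes were measured in the same 2 libraries. The smallest p that such a test allows is 0.333, so a threshold of 0.05 was out of reach for every pair. A bias of ligation or amplification between hairpins that both libraries had in common would not show in the intervals or in the SDs.

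The range within the cluster was set beside that of other groups of precursors that lie on 1 strand no more than 10000 bp apart. By mean CPM, Mir302a exceeded Mir302c, the lowest detected member, by 13.5-fold. In the other 40 groups with at least 2 detected members, the median of the same ratio was 19.7-fold, and 24 of them had a wider range. Members below the minimum for detection, here Mir367, were left out of this ratio. The ratio is therefore capped in a group whose highest member is low, as in this cluster. Whether the range of the cluster was narrow or wide for its level was not tested. The summed level of the Mir302 and Mir367 cluster was lower than that of all but 1 of those 40 groups.

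The members stood in similar proportions in the 2 pools. Replicate 1 over replicate 2, the ratio of CPM was 1.17 for Mir302a (95% exact binomial interval 0.938 to 1.46), 1.14 for Mir302b (0.849 to 1.53), 1.12 for Mir302c (0.467 to 2.66) and 1.14 for Mir302d (0.862 to 1.50). For the 5 genes together it was 1.15 (0.996 to 1.33). All 4 detected members had the higher CPM in replicate 1, as did 175 of the 357 detected genes (49.0%), and none of the members' intervals excluded 1.

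Across all detected genes, the interval excluded 1 for 160 of 357 (44.8%), so the libraries differed beyond counting error. The labels number the pools as biological replicates, so n is given as 2, but both carry 1 donor identifier. Their spread may therefore be partly technical. Low counts give wide intervals, so the members are better read beside genes of their own level. Of 52 detected genes with a mean CPM within 2-fold of Mir302d, 12 had an interval that excluded 1, and 29 had a larger absolute log2 ratio than Mir302d. A larger absolute log2 ratio than the member's own was found in 26 of 48 genes within 2-fold of Mir302a, in 29 of 51 within 2-fold of Mir302b and in 29 of 38 within 2-fold of Mir302c. The absolute log2 ratios of the members were 0.16 to 0.23, beside medians of 0.24 to 0.38 for these genes.

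**Figure D2:**
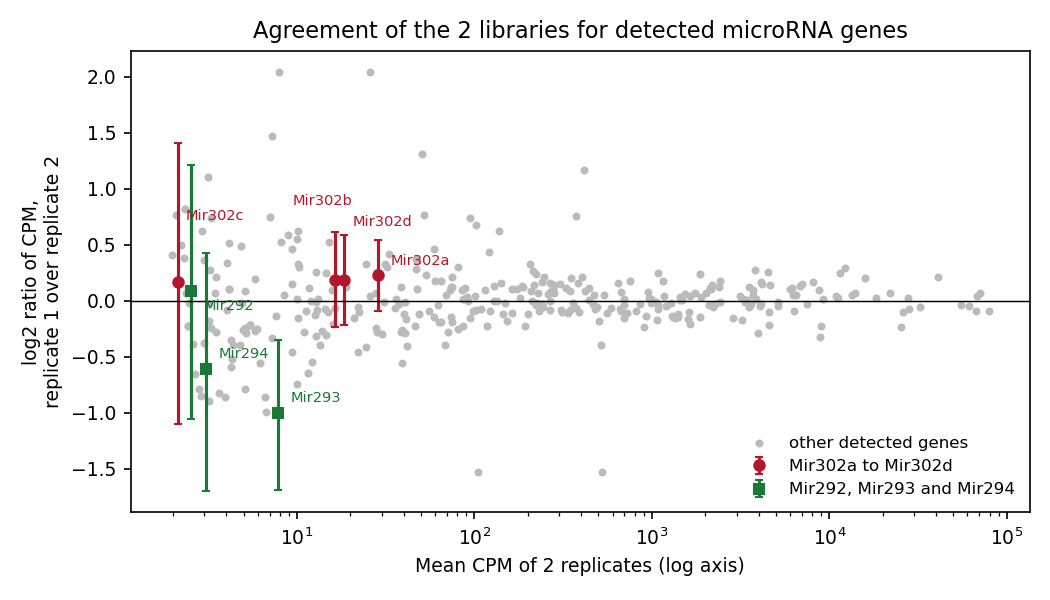
The log2 ratio of CPM, replicate 1 over replicate 2, against mean CPM on a log axis for the 357 detected genes; bars are 95% exact binomial intervals for the genes in colour. Mir302a, Mir302b, Mir302c and Mir302d lie between 0.16 and 0.23 with intervals that include 0, while of Mir292, Mir293 and Mir294 only the interval of Mir293 excludes 0.

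The miR-290 to miR-295 cluster on chromosome 7, also known from mouse embryonic stem cells, was lower still. Of its genes only Mir291a, Mir294 and Mir295 have a listed mature strand with the seed AAGUGCU. The Mir302 and Mir367 cluster averaged 65.5 ± 6.48 CPM, against 15.3 ± 2.94 CPM for the 7 genes on chromosome 7 (SD, n = 2 each), which had 71 counts (13.3 CPM) in replicate 1 and 113 counts (17.4 CPM) in replicate 2. The Mir302 and Mir367 cluster was 5.28-fold higher (95% exact binomial interval 4.09 to 6.91) in replicate 1 and 3.50-fold higher (2.83 to 4.35) in replicate 2, a mean log2 ratio of 2.10 ± 0.421. The exact permutation test again gave p = 0.333, its smallest value.

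Mir302a, Mir302b, Mir291a and Mir291b have runs of 20 bases in common with another precursor. With these genes left out, the ratio was 1.98 (1.44 to 2.76) in replicate 1 and 1.15 (0.880 to 1.50) in replicate 2, a mean log2 ratio of 0.59, and the interval in replicate 2 included 1. Mir302a and Mir302b held 44.0% and 24.8% of the cluster's counts in replicate 1 and 43.3% and 25.1% in replicate 2. Leaving them out lowers the cluster's sum by that much, and an effect of the common runs on the ratio was not tested.

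Within the chromosome 7 cluster, 3 of 7 genes were detected. Mir293 led with 28 counts (5.23 CPM) in replicate 1 and 68 counts (10.5 CPM) in replicate 2. Mir294 followed with 13 and 24 counts and Mir292 with 14 and 16. Mir291b had 7 and 2 counts, Mir291a 5 and 2, Mir295 4 and 1, and Mir290a 0 and 0. Mir293 was 0.499-fold as high in replicate 1 as in replicate 2 (0.309 to 0.786), an interval that excludes 1. The intervals of Mir294 (0.307 to 1.34), Mir292 (0.479 to 2.32) and the 7 genes together (0.558 to 1.03) included 1, as did those of the Mir302 genes. The difference between the 2 clusters in how they varied was not tested.

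Among genes with a listed mature strand of seed AAGUGCU, Mir302b and Mir302d had 198 counts in replicate 1 and 211 in replicate 2, against 22 and 27 for Mir291a, Mir294 and Mir295. That was 9.0-fold more (5.78 to 14.7) in replicate 1 and 7.81-fold more (5.22 to 12.1) in replicate 2. Mir302a, at 165 and 171 counts in replicates 1 and 2, was left out because its 3p strand was not listed, although its hairpin holds AAGUGCU. This grouping was chosen after the values were seen.

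The genes of the Mir17 type, with the seed shifted by 1 base, were far more abundant than the Mir302 genes. The 6 genes listed for this type lie in the Mir17, Mir106a and Mir106b clusters and are known for promoting proliferation. Mir302a, Mir302b, Mir302c and Mir302d together had 70.0 and 60.9 CPM in replicates 1 and 2, against 48229 and 53789 CPM for the 6 genes of the Mir17 type. The mean log2 ratio was -9.61 ± 0.254 (SD, n = 2), so the Mir302 genes were 689-fold lower in replicate 1 and 884-fold lower in replicate 2 (exact permutation p = 0.333, the smallest possible). With Mir302a and Mir302b left out for their common run, and their counts with them, the mean log2 ratio was -11.28. All 6 listed genes of the Mir17 type were detected, while Mir6383, which has the seed AAAGUGC but was not in the list, had 0 counts in both libraries.

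Mir17 led them at 25936 ± 1310 CPM, followed by Mir20a (8938 ± 997 CPM), Mir93 (8802 ± 1388 CPM) and Mir106b (6313 ± 275 CPM). The lowest of the 6, Mir20b, stood at 375 ± 11.9 CPM (SD, n = 2 each), above Mir302a in both libraries.

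The seed of miR-367 was likewise carried by other genes in lung. Mir367 had 0 counts in both libraries, against 23862 counts (4456 CPM) in replicate 1 and 27789 counts (4282 CPM) in replicate 2 for Mir25, Mir32, Mir92-1, Mir92-2 and Mir363 together. At the floor of 3 counts, Mir367 was 7954-fold lower in replicate 1 and 9263-fold lower in replicate 2. The 95% exact binomial limits were smaller, 6468-fold and 7533-fold. With Mir92-1 and Mir92-2 left out, Mir367 was 1841-fold and 2135-fold lower at the floor in replicates 1 and 2, with limits of 1497-fold and 1736-fold. All 5 of these genes were detected.

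Mir92-1 led them at 3155 ± 59.0 CPM, followed by Mir25 (439 ± 1.13 CPM), Mir363 (349 ± 34.9 CPM) and Mir32 (221 ± 4.32 CPM), and Mir92-2 was lowest at 205 ± 32.4 CPM (SD, n = 2 each). Mir92-1 and Mir92-2 have 22 bases in common, and miR-92a-3p, listed for both, is 21 nt long. A read confined to their common run could not have been counted for either gene. Both levels may therefore be too low, and their order is uncertain. Mir92b, which has the same seed and was added after the values were seen, stood at 2008 ± 65.2 CPM. By counts per gene, then, precursors that hold the heptamer of miR-367 were counted in these libraries without any count of Mir367. The strand with the heptamer was not counted apart, as both arms were added together.

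**Figure D3:**
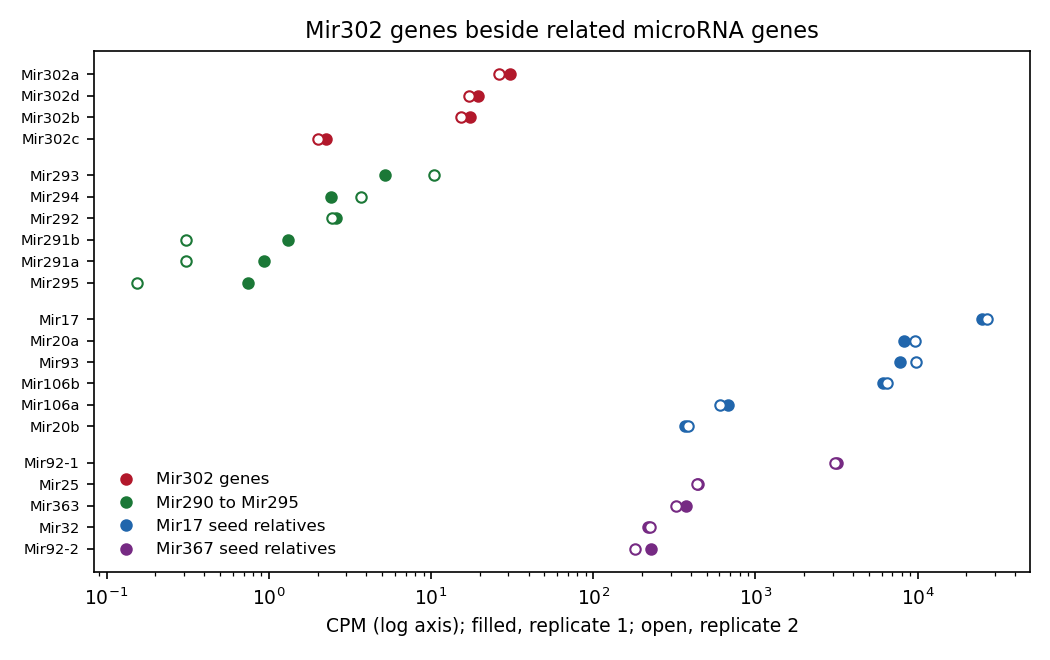
CPM on a log axis for each Mir302 gene, the Mir290 to Mir295 cluster, the listed genes of the Mir17 type and the listed seed relatives of Mir367. Filled points are replicate 1 and open points replicate 2. Genes with 0 counts in both libraries (Mir367 and Mir290a) cannot be drawn on this axis. The Mir302 genes lie between 2.00 and 30.8 CPM, and the lowest of the 6 listed genes of the Mir17 type, Mir20b, lies at 367 and 384 CPM in replicates 1 and 2.

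**Figure D4:**
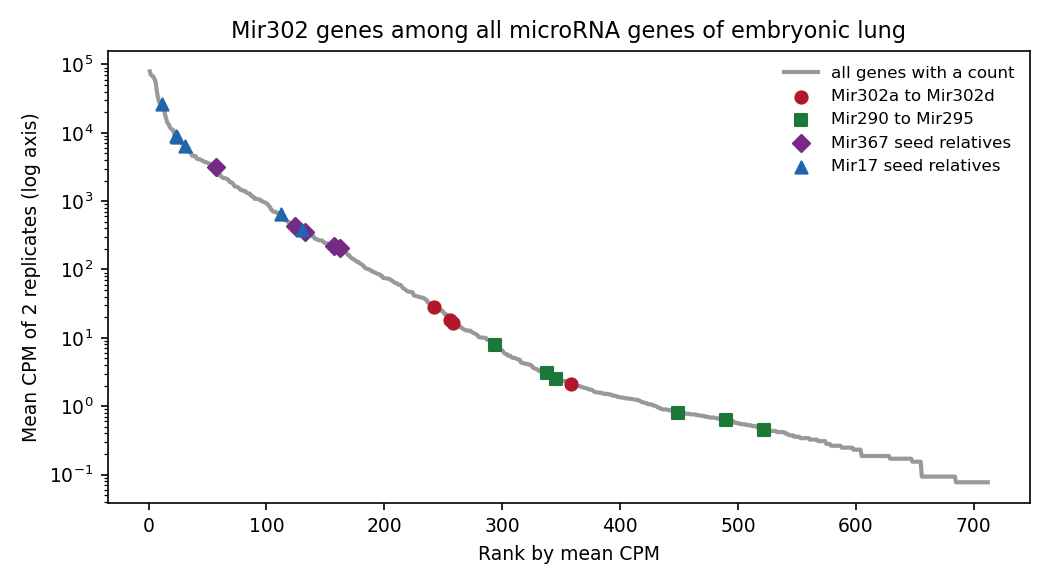
Mean CPM of the 2 replicates on a log axis against rank for the genes with at least 1 count. Mir302a, Mir302d and Mir302b rank 242, 256 and 258 and Mir302c ranks 358, below all 6 listed genes of the Mir17 type and all 5 seed relatives of Mir367.

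The genes nearest to each detected member in level were found by the summed absolute difference in log2(CPM + 1) over the 2 libraries. Mir218-2 was nearest to Mir302a, with 165 and 168 counts in replicates 1 and 2 (distance 0.02), followed by Mir490 with 152 and 176 counts (distance 0.15). Mir3099 was nearest to Mir302d, with 105 and 117 counts (distance 0.06). Mir7688 was nearest to Mir302b, with 87 and 99 counts (distance 0.09), and Mir184, with 86 and 109 counts, came second for both Mir302b and Mir302d. Mir504 (12 and 11 counts) and Mir7-2 (14 and 13 counts) were nearest to Mir302c. With only 2 libraries such nearness says that the levels were alike and nothing more.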

How the data were processed

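Small RNA from 2 pools of embryonic lung was sequenced, and the authors deposited raw read counts per microRNA gene made on mm10 with release M4 of the annotation, per the libraries' readme files. Which aligner and counter were used is not given in the sources used here. Deposited tables have 3 columns of counts, read from their totals as without regard to strand, annotated strand and opposite strand. The annotated strand was used. Summary lines were kept out of the totals; they held 31.4% and 30.6% of reads as mapped to several places, 16.8% and 17.2% as unmapped, 4.78% and 4.22% in no gene and 0 ambiguous.

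Gene names and coordinates were those of GENCODE M21 (GRCm38, the same assembly as mm10); 1894 of 1973 identifiers matched, and the others held 3 and 5 counts. Mir292a is named Mir292 there. CPM used the total of gene counts. Detected means at least 10 counts in both libraries. Intervals are 95% exact Poisson for counts and exact binomial (Clopper-Pearson) for ratios and shares. With 1 group no count model was fitted; edgeR 4.0.16 (TMM) and DESeq2 1.42.0 gave scaling alternatives. The labels number the pools as biological replicates, but both carry 1 donor identifier, so the spread may be partly technical. Shared runs were searched among 1894 precursors. Folding used RNAfold 2.7.2; other steps used Python 3.11.15, numpy 2.4.6, pandas 2.3.3, scipy 1.17.1, matplotlib 3.10.9 and R 4.3.3.

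The members, lists and tests were chosen with earlier results of these data known. Named genes were the members, up to 4 of the highest and the lowest of each list, and the 2 nearest in level to each detected member. The whole chromosome 7 list, Mir92b, Mir6383, the exact-seed grouping and the heart, muscle and liver markers were added after values were seen. Ratio intervals were tested on simulated counts for replicate 1 over replicate 2: for 100 genes simulated at 2-fold the interval covered the true ratio in 94.0%, and for 156 unchanged genes in 92.9%.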

Additional observations from a re-analysis of the deposited data

How the results depend on the processing

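Of 103 alternative values across 21 results, 95 were judged the same, 8 moved and 0 reversed. Only ratios between genes were judged by direction, so only these could reverse. Such a ratio could keep its direction and still move by more than its SD, as some did. Levels were read against 1 SD, and numbers of detected genes by their size. Ratios of replicate 1 over replicate 2 were read against their 95% interval. Disregarding strand could not change a ratio between these genes, which had no counts on the opposite strand. Per 1000000 of all reads of a library, the mean levels were 13.5 for Mir302a, 7.73 for Mir302b, 1.01 for Mir302c, 8.74 for Mir302d and 31.0 for the 5 members together, since that denominator is larger. With Mir143 left out of the total, Mir302c stood at 2.30 CPM. With at least 1 count in place of 10, 590 genes were detected, and with at least 100 counts 2 members, Mir302a and Mir302d. Without 1 replicate, the summed level was 60.9 to 70.0 CPM, the log2 ratio to Mir290 to Mir295 1.81 to 2.40, and that of the Mir302 genes to the Mir17 type -9.79 to -9.43. These log2 ratios were also taken with genes that have 20 bases in common with another precursor left out. They were then 0.59 (2.10 ± 0.421 with those genes) and -11.28 (-9.61 ± 0.254 with those genes). For Mir367 at the floor of 3 counts, the log2 ratio to its seed relatives was -10.95 without those genes and -13.07 with them. TMM, DESeq2 size factors and counts without regard to strand left each member level within 1 SD. Depth limits Mir302c, at 12 and 13 counts, and Mir367, at 0. With 1 group, no pairing of samples between conditions was possible. The compared genes were measured in the same 2 libraries, and the permutation tests did not use that pairing.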
